A study of Mus musculus with 57 samples.

Results

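Expression of the T cell growth factor Il2 and of the 3 chains of its receptor, Il2ra, Il2rb and Il2rg, was described in 56 single mouse T helper 2 (Th2) cells. The members were taken by name from the deposited expression table (rows il2, il2ra, il2rb and il2rg), and all 4 were present among its 10565 genes. Th2 cells are CD4+ helper cells of allergic and anti-parasite immunity. All cells belonged to 1 group: wild type C57BL/6 spleen CD4+ T cells from mice aged 8 weeks, activated through CD3 and CD28, driven towards Th2 with IL-4 under an antibody to interferon gamma, and kept in culture for 5 days before restimulation with antibodies to CD3 and CD28. IL-2 protein was added to these cultures after 2 days, so they received IL-2 from outside, and how much of it remained at capture is not known. Cells were captured on the microfluidic Fluidigm C1, and the titles number them within 5 sets, T1 (8 cells) to T5 (12 cells), whose meaning the labels do not give. Because the labels tell no animals or cultures apart, all 56 cells were treated as a single sample: tests between cells were not made, and ranges, SDs and correlations describe spread between cells. The pooled library of 10000 cells was left out.

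Interleukin-2 is secreted by activated T cells and acts on the same cell and on its neighbours. Il2ra (CD25) raises the affinity of the receptor and has no signalling role of its own, whereas Il2rb (CD122, shared with IL-15) and Il2rg (CD132, the common gamma chain, shared with IL-4, IL-7, IL-9, IL-15 and IL-21) carry the signal through the kinases JAK1 and JAK3 to STAT5. STAT5 in turn induces Il2ra, the feedback inhibitor Cish and growth genes. In T helper cells, IL-2 signalling is known to favour the Th2 fate, and fully differentiated Th2 cells are known to make less IL-2 than naive or Th1 cells.

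The values were TPM (transcript abundance scaled for length and to a fixed total per cell) rounded to whole numbers, and detection of a gene meant a value of at least 1 TPM. TPM keeps no sequencing depth, so a value of 0 is given as listed at 0, and intervals of shares are exact Clopper-Pearson 95% intervals that cover counting error only. The cells had 2679 to 8396 genes detected, with a median of 4743.5. Of the T cell markers, Cd3d, Cd3e and Cd2 were detected in all 56 cells and Cd4 in 37, and the Th2 regulator Gata3 was in all 56. Cells T3_2 and T3_5 stood apart, T3_5 with the 8396 genes and T3_2 with the lowest values of Il2rg (250 TPM) and Gata3 (55 TPM). They were not picked by a cutoff on genes detected: T4_3 with 2679 and T3_3 with 2906 had fewer than T3_2 with 3096 and were kept. Il2rg is itself a member, so leaving out T3_2 takes away its lowest value. Without T3_2 and T3_5, 10 cells with 1000 TPM or more of Il2 and 49 cells with all receptor chains remained, against 11 and 50 with them, and correlations between members are given both ways.

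No promoter sequence of Il2rb was at hand, so the sequences just upstream of the other 3 of the 4 genes are shown first. They set the ligand, which few cells held at a high level, beside Il2ra and Il2rg, which all 56 cells held. They are the bases before the annotated start in RefSeq (build GRCm38.p6, 5′ to 3′ on the gene's own strand) at chr3:37125955-37126204, minus strand, for Il2, chr2:11642542-11642791, plus strand, for Il2ra, and chrX:101268256-101268505, minus strand, for Il2rg. Capitals mark every match, on either strand, to 4 short motifs: GGAAA, the core bound by NFAT, TGANTCA for AP-1, TTCNNNGAA for STAT factors, and TATAAA, the TATA box.
Il2: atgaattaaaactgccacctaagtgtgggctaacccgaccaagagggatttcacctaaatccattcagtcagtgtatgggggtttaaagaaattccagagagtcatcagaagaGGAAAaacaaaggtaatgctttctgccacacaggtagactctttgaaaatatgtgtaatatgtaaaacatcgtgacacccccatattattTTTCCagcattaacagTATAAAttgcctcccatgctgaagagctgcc
Il2ra: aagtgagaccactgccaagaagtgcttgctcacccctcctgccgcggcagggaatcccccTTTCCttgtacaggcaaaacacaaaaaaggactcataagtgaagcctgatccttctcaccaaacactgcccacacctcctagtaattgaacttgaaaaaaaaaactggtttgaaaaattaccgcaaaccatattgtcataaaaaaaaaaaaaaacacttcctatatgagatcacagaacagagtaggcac
Il2rg: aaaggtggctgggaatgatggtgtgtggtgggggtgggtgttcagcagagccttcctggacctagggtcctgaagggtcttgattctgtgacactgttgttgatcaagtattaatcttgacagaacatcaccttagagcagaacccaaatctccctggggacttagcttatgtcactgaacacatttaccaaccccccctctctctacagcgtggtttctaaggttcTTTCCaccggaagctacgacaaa

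The Il2 window held 2 NFAT cores, whose first printed bases lie at -137 (plus strand) and -47 (minus strand) from the start, and a TATAAA at -31. Among 27025 mouse promoter windows of the same length, 55.6% held at least 1 GGAAA, 21.7% held at least 2, and 12.97% held TATAAA. The Il2ra window had 1 NFAT core, at -190 on the minus strand, and the Il2rg window 1, at -23 on the minus strand. TGANTCA, which 6.87% of windows held, and TTCNNNGAA, which 7.18% held, had no match in these 3 windows. These are matches of letters in a short window, and the motifs do not overlap each other here.

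The ligand Il2 was present in few cells at a high level and was low or at 0 in the rest. It was listed at 0 in 17 cells, at 1 to 9 TPM in 14, at 10 to 99 TPM in 6, at 100 TPM to under 1000 in 8, and at 1000 TPM or more in 11 (19.6%, 95% interval 10.2 to 32.4). Its mean was 1560 TPM (SD 5159, n = 56 cells) and its median 2.5 TPM, with a lowest value of 0 and a highest of 31888. The mean is therefore carried by a small number of cells. The highest cell, T4_1, held 36.5% of the summed Il2 TPM, the 3 highest held 69.5%, and the 11 cells at 1000 TPM or more held 96.9%. Detection in 39 cells (69.6%, 55.9 to 81.2) rests in part on single units of TPM: at 10 TPM or more, 25 cells had Il2, or 44.6%.

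The receptor chains were spread far more evenly. Il2rg was detected in all 56 cells, with a mean of 4512 TPM (SD 2041), a lowest value of 250, a median of 4226 and a highest value of 10895. All cells but T3_2, the one at 250 TPM, held 1598 TPM or more, and by mean level Il2rg was the 19th of the 10565 genes. Il2ra was also in all 56 cells, with a mean of 660 TPM (SD 514), a lowest value of 31 in T3_6, a median of 583.5 and a highest value of 2871 in T5_4. Il2rb was the scarce chain. It was detected in 50 cells (89.3%, 78.1 to 96.0), at a mean of 76.5 TPM (SD 130), with a lowest value of 0, a median of 21 and a highest value of 784 in T3_1. At 10 TPM or more Il2rb was in 36 cells, or 64.3%.

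TPM is scaled for length, so levels of the chains can be set side by side within a cell. In medians the order was Il2rg, Il2ra, Il2rb and Il2, with quartiles at 3132 to 5639, 342 to 838, 2 to 85 and 0 to 285.5 TPM. Il2rg exceeded Il2ra in 54 of 56 cells, the exceptions being T5_4 and T5_9, and exceeded Il2rb in all 56. Il2ra exceeded Il2rb in 55 cells, the exception being T3_1, with 415 TPM of Il2ra and 784 of Il2rb. Il2 and Il2rb, the neighbours at the low end, did not separate: Il2 was the higher in 26 cells. The ratio of Il2rg to Il2ra had a median of 7.04 (range 0.878 to 100.1), and that of Il2ra to Il2rb had a median of 15.3 over the 50 cells with Il2rb (range 0.529 to 1436).

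All 3 chains were detected together in 50 of 56 cells, and the other 6 lacked only Il2rb. Those 6 were T2_8, T5_11, T3_3, T3_2, T3_12 and T5_12. Ligand and full receptor occurred together in 35 cells, and 15 cells had all 3 chains with Il2 at 0. At 1 TPM, then, the cells without Il2 mostly held a full set of receptor transcripts.

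**Figure D1:**
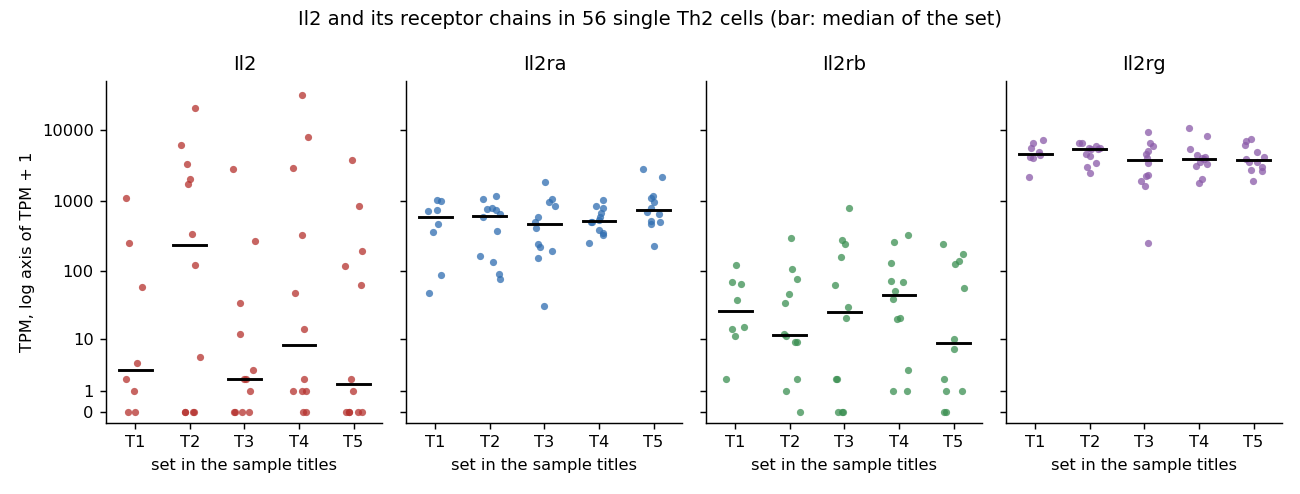
TPM of Il2, Il2ra, Il2rb and Il2rg (log axis of TPM + 1) in each of the 56 cells (points), by the set number in the sample titles, with the median of each set as a bar. Il2 spans 0 to 31888 TPM in T4 and 0 to 1088 TPM in T1, while Il2rg lies at 1598 TPM or more in all cells but one at 250 TPM in T3.

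By set, the chains kept their order and Il2 moved most. The median of Il2 was 3, 231.5, 2, 8 and 1.5 TPM in T1 to T5, and the cells at 1000 TPM or more numbered 1, 5, 1, 3 and 1. T2 thus held 5 of the 11, and 6 remained when T2 was left out. Median Il2ra was 597.5, 613, 461, 516 and 741 TPM in T1 to T5, median Il2rb 26.5, 11.5, 25.5, 45.5 and 8.5 TPM, and median Il2rg 4656, 5430, 3782, 3973 and 3795 TPM. Every set overlapped every other for each of the 4 genes. No member followed the number of genes detected per cell (rho -0.01 for Il2, -0.06 for Il2ra, -0.08 for Il2rb and 0.09 for Il2rg).

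To place this spread among genes of like level, excess variation was taken as log2 CV2 (the squared coefficient of variation) minus its running median across genes of nearest mean, using the 7871 genes that at least 10 cells held. Il2 was the 1 member of 4 with an excess above 1, a value that 13.1% of the genes exceeded. Its excess was 5.10, and 4.96 without its highest cell. Il2ra was at 0.26, Il2rb at 0.04 and Il2rg at -0.35. The scatter of Il2rb, with a CV2 of 2.88, was thus that of other genes at about 76.5 TPM, whereas the CV2 of Il2, 10.9, lay far above that of genes near 1560 TPM. This was not particular to Il2. Of 18 listed restimulation cytokine genes, 15 had an excess above 1, with a median of 2.74. Csf2 was at 5.04, Il4 at 4.53 and Il3 at 4.42.

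**Figure D2:**
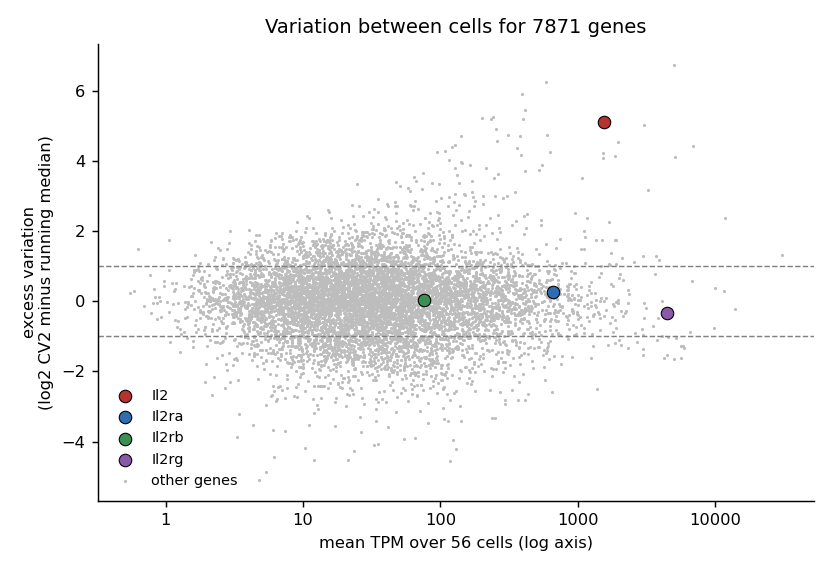
Excess variation (log2 CV2 minus the running median) against mean TPM on a log axis for 7871 genes (grey) and the 4 members (coloured), with dashed lines at 1 and -1. Il2 stands at 5.10, above the dashed line, and the chains lie between the lines at 0.26, 0.04 and -0.35.

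Each of the 11 Il2-high cells (1000 TPM or more) is given by its own values, since cells picked by Il2 are no group of the study. The last cell inside the threshold was T1_6 with 1088 TPM and the first outside was T5_11 with 836. In T4_1, Il2 was the most abundant gene of the cell, at 31888 TPM or 3.19% of its total, beside 800 TPM of Il2ra, 331 of Il2rb and 4195 of Il2rg. T4_1 ranked 2nd of 56 for Il2rb. T2_8, next with 20652 TPM of Il2, had 92 TPM of Il2ra, 0 of Il2rb and 3059 of Il2rg. The cells with the most ligand therefore stood near opposite ends for Il2rb.

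Further down, T4_4 (8141 TPM of Il2) had 255 TPM of Il2ra, 39 of Il2rb and 1786 of Il2rg. T2_11 (6188) had 1064, 78 and 5915 TPM of these chains in the same order, and T5_3 (3838) had 1156, 56 and 3007 TPM. Cell T4_7 (2902) held the most Il2rg of all cells, 10895 TPM, and T2_10 (1716) had 76 TPM of Il2ra, 2 of Il2rb and 4310 of Il2rg. Among the 28 cells with the most Il2ra there were 5 of the 11, among the 28 with the most Il2rb 7, and among the 28 with the most Il2rg 4. For Il2rb, T3_5 is counted through a tie with T4_11 at rank 28, both at 21 TPM. The Il2-high cells spanned 76 to 1156 TPM of Il2ra, 0 to 331 of Il2rb and 1786 to 10895 of Il2rg, against 31 to 2871, 0 to 784 and 250 to 9351 TPM in the other 45 cells, so the ranges overlap for each chain. All 3 chains were detected in 10 of them, T2_8 being the exception, and in 6 of them Il2 exceeded Il2rg.

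**Figure D3:**
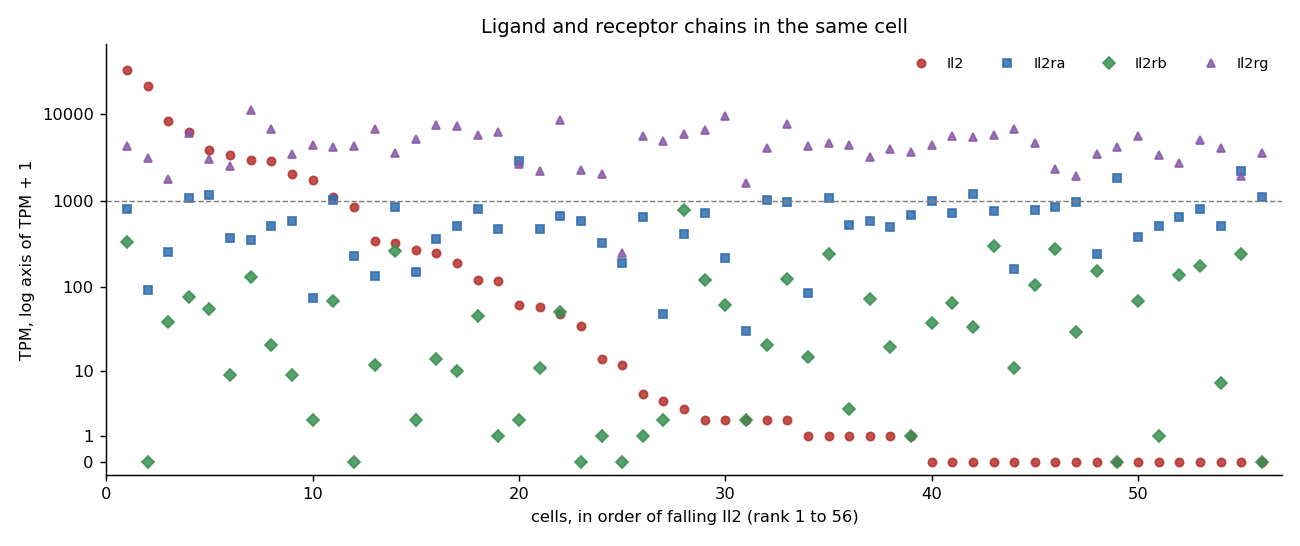
TPM of Il2 and of the 3 receptor chains (log axis of TPM + 1) in the same cell, with the 56 cells in order of falling Il2 and a dashed line at 1000 TPM. Il2 falls from 31888 TPM to 0 along the axis, while Il2rg, Il2ra and Il2rb form 3 loosely layered bands at all ranks.

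The Il2-high cells differed widely among themselves in other cytokines. The highest values of the hematopoietic growth factor gene Il3 belonged to the Il2-high cells T2_8 (80859 TPM) and T2_10 (75448), yet T5_3 had 8 TPM, T4_7 had 10 and T2_11 had 26. Csf2 showed the same breadth, with 52207 TPM in T2_8 and 4 in T4_4. Il4, the signature cytokine of Th2 cells, was present in all 11, with 2 TPM in T4_7 and 2941 in T3_5 as the extremes. The chemokine gene Ccl1 was at 2165 to 43946 TPM in all 11, and at 0 to 47466 TPM in the other 45 cells. Gata3 lay between 175 TPM in T2_10 and 1758 in T5_3 in these cells, against 55 to 2178 in the other 45, so the ranges overlap. Over all 56 cells, the Th2 markers had Spearman's rho with Il2 of -0.34 (Ecm1), -0.26 (Gata3), -0.13 (Il4), -0.06 (Ccr8) and 0.08 (Stat6). Of all genes, 1.61% had a rho of -0.3 or less to Il2, as Ecm1 did. The early activation antigen Cd69 was at 311 to 1779 TPM in the Il2-high cells and at 0 to 5243 in the others.

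Regulatory T cells are known for high Il2ra and little Il2, so their markers are given beside these values. Their defining factor Foxp3 was detected in 9 of 56 cells, at 40 TPM or less, and 4 of these were Il2-high (T4_1 at 28 TPM, T1_6 at 18, T2_10 at 15 and T3_5 at 2). Summed over the 5 regulatory T cell markers, levels were 8 to 1249 TPM in the Il2-high cells and 28 to 5189 in the others. Of the markers of B cells (1 of 5 was in the table, Cd74), CD8 T and NK cells (2 of 6, Cd8b1 and Nkg7), myeloid cells (1 of 5, Cst3) and mast cells and basophils (1 of 4, Cpa3), the sums were 0 to 250, 0 to 1155, 30 to 1321 and 0 to 7 TPM in the Il2-high cells, against 0 to 672, 0 to 5592, 0 to 3795 and 0 to 160 TPM in the others. The part of these markers in the level of Il2 was not tested.

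The relation of ligand and receptor was described by Spearman's rho over the 56 cells, which share 1 culture label, a fixed TPM total and unknown depths, and a rho of 0.3 or more in size was called a relation. Il2 had a rho of -0.26 with Il2ra (Pearson r of log2(TPM + 1) -0.17), -0.15 with Il2rb (r -0.10) and 0.07 with Il2rg (r 0.04), so none of the 3 was called. Without T3_2 and T3_5 these rho were -0.26, -0.15 and 0.05. With the cells holding the most Il2, T4_1 and T2_8, left out instead, rho was -0.26, -0.18 and 0.11, and r was -0.14, -0.12 and 0.06. Leaving out the whole of set T4 brought both Il2 with Il2ra (-0.32) and Il2 with Il2rb (-0.34) past -0.3. Over 12 alternatives in the same cells, the correlation stayed negative with Il2ra (-0.32 to -0.14) and with Il2rb (-0.34 to -0.06). Within sets T1 to T5, Il2 and Il2ra had rho of -0.06, -0.37, -0.49, 0.04 and -0.23. Il2 and Il2rb had -0.18, -0.50, -0.34, 0.54 and -0.35, so T4 ran the other way. Il2 and Il2rg had -0.17, -0.40, 0.26, 0.01 and 0.29, with no common sign.

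Among the chains, Il2ra and Il2rb varied together with a rho of 0.36 (r 0.35). Of 7870 genes, 1.89% had a rho of 0.3 or more to Il2ra, and 1.41% had one to Il2rb. The rho was positive within each set, at 0.74, 0.68, 0.16, 0.35 and 0.36 in T1 to T5, and 0.33 without T3_2 and T3_5. It fell under the threshold without set T2 (0.27) and with TPM rescaled per cell (0.29). Il2rb and Il2rg had a rho of 0.24 (r 0.29), or 0.21 without T3_2 and T3_5 and 0.34 without set T5, and Il2ra and Il2rg had -0.07 (r 0.07), or -0.10 without T3_2 and T3_5. The affinity chain and the scarce signalling chain thus had the one called relation among the 6 pairs.

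**Figure D4:**
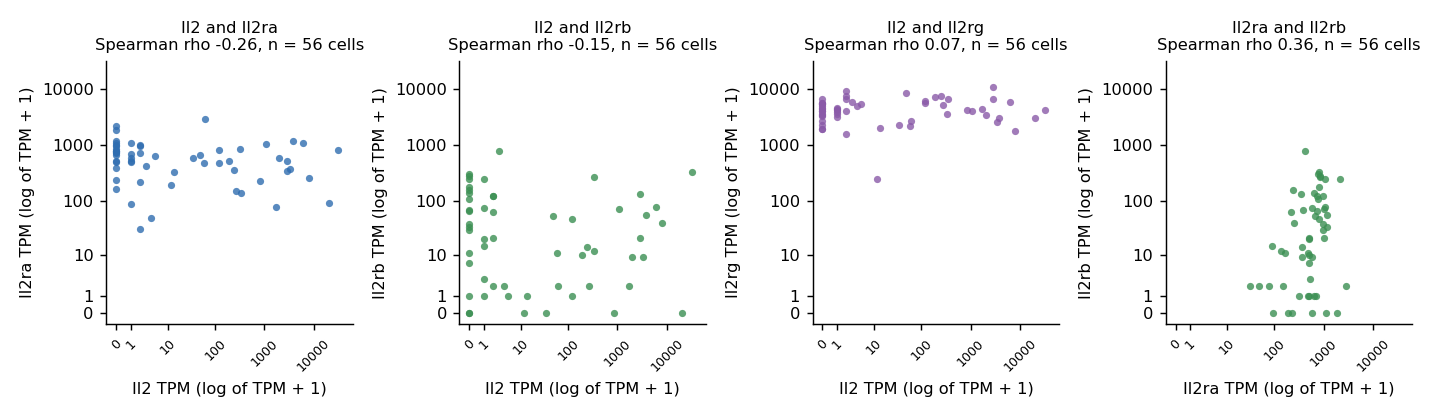
TPM of the receptor chains against Il2, and of Il2rb against Il2ra (log axes of TPM + 1), with 1 point for each of 56 cells. The clouds for Il2 show no relation of 0.3 or more in size (rho -0.26, -0.15 and 0.07), and Il2rb tends to be higher where Il2ra is higher (rho 0.36).

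Over all genes, 2.59% of 7870 had a rho of 0.3 or more to Il2 and 1.61% one of -0.3 or less, and the median rho was 0.01. The 8 genes most like Il2 in pattern were Cd9 (0.63), a tetraspanin of the cell surface, the phospholipid scramblase Plscr1 (0.55), the anthrax toxin receptor Antxr2 (0.54), the death ligand Fasl (0.53), the receptor Slamf7 (0.48), Taf1c (0.48), a subunit of the RNA polymerase I initiation factor, the lectin Clec2i (0.48) and the proline synthesis enzyme Aldh18a1 (0.46). All 8 kept a rho of 0.3 or more in each of the alternatives in which they entered, and the lowest was 0.36 for Plscr1 without set T2. The 8 were picked as the highest of 7870 rho in the same cells that the alternatives reuse, so this is no independent support. Cd9 was detected in 27 cells, 10 of which were Il2-high, at up to 1232 TPM in T2_8. Its highest cell was T5_11, the first outside the Il2-high threshold, with 3187 TPM of Cd9 and also the most Fasl, 1085 TPM. Slamf7 and Plscr1 both had their highest value in T4_1 (1096 and 2251 TPM), the cell with the most Il2. High values of these genes in Il2-high cells follow in part from choosing them by their rho with Il2.

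Genes that act around Il2 were then compared by list, 66 of 74 listed genes being detected in at least 10 cells. Of these, 4 had a rho of 0.3 or more to Il2, against 2.59% of all genes, and 0 had one of -0.3 or less, against 1.61%. Counts this small in lists of this size tell little about the lists. Their median was 0.00, against 0.01 over all genes. Restimulation cytokines gave 3 of the 4: Ccl3 (0.42), Tnf (0.39) and Ccl1 (0.35), with 15 of 18 positive and a median of 0.13. Without set T2, Ccl3 was at 0.25 and Ccl1 at 0.23. Il3 and Csf2 were both at 0.27, the Th2 cytokines Il5 and Il13 at 0.01 and 0.04, Il4 at -0.13 and Il24 at -0.24.

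Of the 12 known activators of Il2, the NF-kB subunit Rel was the 1 called (0.31, or 0.25 without set T1 and 0.29 without T3). A rho of 0.3 or more was reached by 2.59% of all genes, so 1 call tells little about this list. Its partner Rela was at 0.25, and the NFAT genes Nfatc1, Nfatc2 and Nfatc3 were at 0.14, 0.06 and -0.17. Rel averaged 71.4 TPM (SD 85.4) with 50 cells positive, and Nfatc1 48.5 TPM (SD 70.5) with 47. The costimulatory receptor Cd28 was in 55 cells at 436 TPM (SD 387) and had a rho of -0.21. None of the 7 known repressors that entered was called, which in so short a list tells little about them. Among them, Egr2 was at 0.19 and Ikzf1, which encodes Ikaros, at -0.07.

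**Figure D5:**
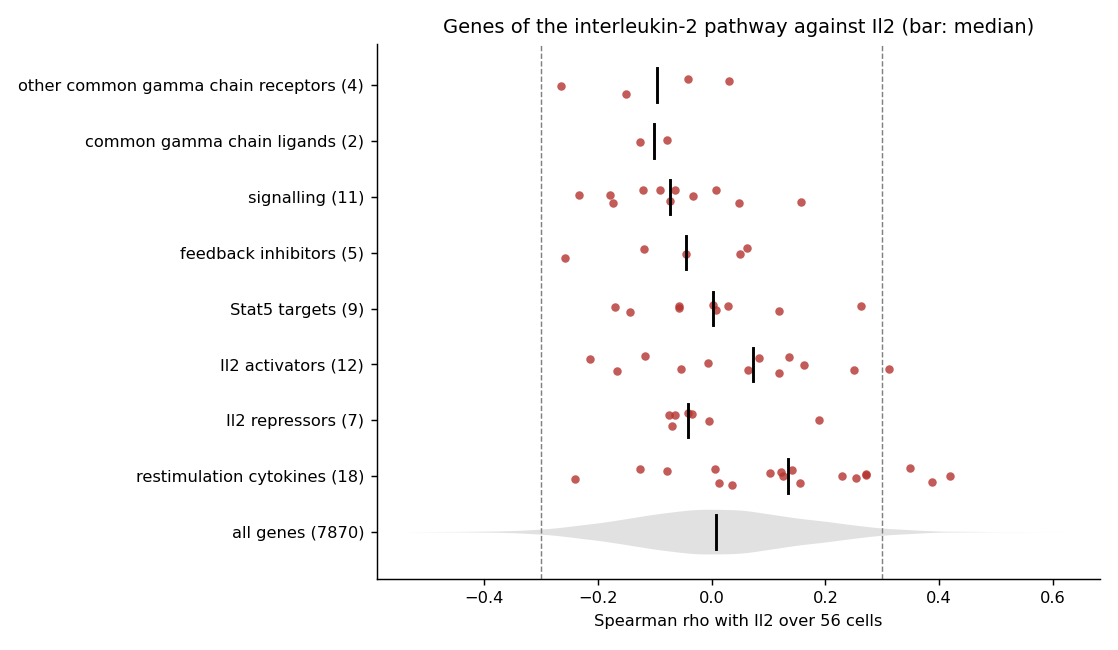
Spearman rho with Il2 over 56 cells (horizontal axis) for the genes of 8 lists (points, with the number of genes in brackets and the median as a bar) and for all 7870 genes (grey shape), with dashed lines at 0.3 and -0.3. Restimulation cytokines have the highest median, 0.13, and 4 listed genes lie beyond the right line.

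Downstream of the receptor, transcripts of the signalling genes were modest in level. The kinase gene Jak1 was detected in 52 cells at a mean of 64.3 TPM (SD 58.2), Jak3, which pairs with the common gamma chain, in 18 at 8.36 (SD 26.1), Stat5a in 53 at 125 (SD 133) and Stat5b in 31 at 12.4 (SD 46.1). With Il2 the rho of these JAK and STAT5 genes was between -0.07 and 0.16. Over the 11 signalling genes that entered, the median was -0.07, with 3 positive, 0 called and Grb2 lowest at -0.23. The feedback inhibitor Cish was in all 56 cells at 836 TPM (SD 602), from 3 to 2369, whereas Socs2 was in 36 cells (SD 55.7, median 4 TPM) and Socs1 in 11 at a mean of 2.02 TPM. Cish had a rho of -0.26 with Il2 and of 0.40 with Il2ra.

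Gata3 was among the 8 genes with the highest of 7870 rho to Il2ra, a ranking over the 56 cells of 1 sample. The 8 highest were Glrx (0.53), a glutaredoxin, Shisa5 (0.50), the actin-binding peptide gene Tmsb4x (0.49), Gata3 (0.48), the adaptor Grap (0.47), the lipase Mgll (0.46), Adamtsl3 (0.46) and the inhibitory receptor Ctla4 (0.46), of which only Grap fell under 0.3 in any alternative, to 0.25 with Pearson's r. These 8 too were picked as the highest in the cells that the alternatives reuse, so this is no independent support. A rho of 0.3 or more to Il2ra was reached by 1.89% of all genes and by 3 of the 66 listed ones. These were Cish (0.40), the repressor Prdm1 (0.38) and the cyclin Ccnd3 (0.36, or 0.29 without set T1). By list, that was 1 of the 9 STAT5 targets that entered and 1 of the 5 feedback inhibitors, so most of both lists were not called. Another 3 of the 66 listed genes had -0.3 or less, a range that 1.37% of all genes reached: Il3 (-0.39), the cytokine gene Tnfsf11, known as RANKL (-0.36), and Ccl1 (-0.30). Il3 was at -0.25 without set T2 and -0.26 without T5, Tnfsf11 at -0.22 without T5, and Ccl1 missed the threshold in 7 of 11 alternatives. The cells with the highest Il3, T2_8 and T2_10, had 92 and 76 TPM of Il2ra and ranked 52nd and 54th of 56 for it.

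For Il2rb the most alike genes were 2610020C07Rik (0.49), Cd69 (0.46), the translation release factor Gspt1 (0.45), AI314976 (0.44), the stress factor Atf3 (0.44), Cnp (0.43), Ywhab (0.43) and Sft2d2 (0.42). Of the 66 listed genes 0 were called, where 1.41% of all genes had a rho of 0.3 or more to Il2rb, so this tells little about the lists. For Il2rg they were Zfp259 (0.48), Hbxip (0.47), the ribosome assembly factor Tsr1 (0.47), the surface glycoprotein Cd200 (0.46), the sphingolipid enzyme Sptlc1 (0.45), Lrrfip1 (0.43), Tmem185b (0.43) and Papd7 (0.42). A rho of 0.3 or more to Il2rg was reached by 2.24% of all genes and by 2 of the 66 listed ones, the adaptor Grb2 (0.34) and the survival gene Bcl2l1 (0.33). Both missed the threshold in some alternatives, Grb2 with 0.25 after rescaling and Bcl2l1 with 0.23 without set T5. The 4 members had no gene in common among their 8 most alike. Lists of 8 out of 7870 genes would rarely share one, so this tells nothing about the members.

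Il2rg also serves other cytokines, and the private chains that share it were far lower than Il2rg itself. Il7r was detected in 50 cells at a mean of 144 TPM (SD 215), Il15ra in 24 at 79.1 (SD 162), Il21r in 26 at 29 (SD 109.6) and Il4ra in 35 at 26.6 (SD 62.5), against 4512 TPM of Il2rg and 660 of Il2ra. Il9r was not analysed here. Their rho with Il2rg ran from -0.12 for Il15ra to 0.23 for Il4ra, and none was called, against 2.24% of all genes at 0.3 or more. Of the ligands that use the chain, Il4 was in 54 cells at 1954 TPM (SD 4744), Il9 in 13 at 257 (SD 1264) and Il21 in 5 at 1.09 (SD 4.30), beside Il2 in 39 at 1560 TPM. Il7 and Il15 were not analysed here.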

How the data were processed

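Single-cell RNA sequencing of 56 Th2 cells was analysed from 1 deposited table. Its values are entered as a score, since the authors deposited TPM rounded to whole numbers (column sums 999202 to 999914). The submitters' processing notes name FastQC, Bowtie 0.12.2, Cufflinks and build mm9, without saying what each tool was used for. Per the labels, cells were captured on a Fluidigm C1. Depth is unknown, so no counting error can be attached to a level.

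The members and gene lists were chosen with earlier results of these data known. Detection was 1 TPM, Il2-high 1000 TPM. Correlations used genes detected in at least 10 cells; excess variation used a running median over 101 genes. Both were checked on simulated data. Named genes were the members, the 74 listed genes (a selection is printed) and the 8 genes of highest rho per member. Symbols were matched to GRCm38.p6 annotation (9501 current, 949 older, 115 unmatched), and promoter windows were cut from RefSeq's table at the annotated start. Alternatives changed detection, sets, scaling, pseudocount, filters and the correlation. Python 3.11.15, numpy 2.4.6, pandas 2.3.3 and scipy 1.17.1 were used.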

Additional observations from a re-analysis of the deposited data

How the results depend on the processing

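Of 216 alternative values of the main results, 194 kept their side of the threshold (rho, excess), their counting interval (shares) or stayed within 1.5 times (counts). Among these 194, 10 changed sign, all of them rho or excess values under the threshold: Il2 with Il2rg ran between -0.06 and 0.17, Il2ra with Il2rg between -0.12 and 0.07, the excess of Il2ra between -0.33 and 0.54 and that of Il2rb between -0.62 and 0.20, so none of these has a settled sign. The excess of Il2rg was -1.15 with TPM rescaled. Some alternatives, chosen after seeing the data, left out sets or cells T3_2 and T3_5 or rescaled TPM. The share of cells with Il2 was 46.4% at 5 TPM and 44.6% at 10 TPM, and that of Il2rb 69.6% and 64.3%. Il2-high cells numbered 19 at 100 TPM, 4 at 5000 TPM and 6 without set T2. Without T4, the rho of Il2 with Il2ra was -0.32 and with Il2rb -0.34. Il2ra with Il2rb was at 0.27 without T2 and 0.29 with TPM rescaled, and Il2rb with Il2rg at 0.34 without T5. Genes with excess above 1 numbered 660 with at least 20 cells and 1563 with at least 1, since fewer or more genes enter. Genes with a rho of 0.3 or more to Il2 numbered 132 with at least 20 cells, 312 without T4 and 376 without T5; those at -0.3 or less numbered 77 with Pearson's r, 220 without T1 and 379 without T3. Listed genes at 0.3 or more were 7 with Pearson's r and 7 without T4, against 4. Fewer cells also widen the spread of rho; beyond that the cause was not tested. The excess of Il2 stayed between 4.90 and 5.50. Of 64 relations of a member with a named or strongly opposed gene, 50 kept 0.3 in size in every alternative in which the gene entered. All 64 were picked by the size of their rho in the same cells that the alternatives reuse, so this is no independent support. TPM gives no depth, so low values, above all of Il2rb and Il2, carry an unknown counting error.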

Other observations

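Genes that ran opposite to Il2 were looked up after the values were seen. The 5 lowest rho over the 56 cells belonged to Rpgrip1 (-0.53), the actin regulators Cfl1 (-0.49) and Pfn1 (-0.49), the cytoskeletal actin gene Actb (-0.49) and the replication helicase gene Mcm2 (-0.48), followed by the peroxidase Gpx4 (-0.47) and the dUTP-cleaving enzyme gene Dut (-0.46). Actb was detected in all cells at a mean of 13891 TPM. In T4_1, the cell with the most Il2, it was at 2395 TPM and ranked 55th of 56, and in T2_8 it was at 4993 TPM and ranked 53rd. With Pearson's r of log2(TPM + 1), Cfl1 was at -0.29, under the threshold, while Actb stayed past it in all 11 alternatives, at -0.34 without set T2. Il2 took 3.19% of the fixed TPM total in T4_1 and 2.07% in T2_8, and the part of the fixed total in these values was not tested.

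The small nucleolar RNA gene Snora23 had the lowest rho of all genes with both Il2rb (-0.47) and Il2rg (-0.45). It was detected in 13 cells at a mean of 24.7 TPM, which rests on 1308 TPM in T3_2, the cell with the least Il2rg and none of Il2rb listed.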
